A study of Mus musculus with 6 samples.

Results

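The 10 heat shock chaperone genes Hspa1a, Hspa1b, Hspa8, Hsph1, Dnajb1, Hsp90aa1, Hsp90ab1, Hspb1, Hspd1 and Hspe1 were taken by name from a table of 54532 genes, and all 10 were present. The table held RNA sequencing of macrophages from the peritoneal cavity of C57BL/6J mice, 3 wild type (WT) libraries and 3 libraries of mice without progranulin (PGRN KO), the secreted glycoprotein encoded by Grn. Cells of both genotypes were grown in DMEM with fetal bovine serum, plated in wells of equal cell number and challenged in culture with Candida albicans at 1 fungus per macrophage for 6 hours. Unchallenged cells were not analysed here, so that all values are levels after challenge. The text of the study calls the sequenced cells bone marrow-derived and gives another ratio of fungus to cells, and the labels were followed. It also names different suppliers for the PGRN KO and the WT mice, whose effects and that of genotype cannot be told apart. Libraries are called by the replicate numbers of the labels, WT 1, 2 and 3 and PGRN KO 4, 5 and 6. Nothing says that these came from separate mice or cultures, and p-values therefore measure only the spread between these libraries.

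Heat shock chaperones help other proteins to fold, keep unfolded chains from clumping and pass spent ones on for breakdown. The HSP70 proteins bind short exposed stretches of a client in a cycle driven by ATP, J-domain proteins such as DNAJB1 deliver the client and start the cycle, and HSP110 proteins such as HSPH1 release the nucleotide and so end it. HSP90 then holds clients such as kinases and receptors close to their active form, small heat shock proteins hold unfolded chains without using ATP, and the HSPD1 and HSPE1 proteins form the barrel and lid of the folding chamber of the mitochondrion. Many of these genes are under the control of heat shock factor 1, which binds inverted repeats of a short unit in promoters.

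Values are FPKM, in which fragments are divided by gene length and by library size, a level per length that can be compared between genes. The libraries held 15996786 to 17551619 fragments. Grn, the targeted gene, was at 323, 337 and 325 FPKM in WT and at 0.0166, 0 and 0.0167 FPKM in PGRN KO, which was 1, 0 and 1 fragments. PGRN KO 6 stood apart from its group: counts differed from those of PGRN KO 4 and 5 by a chi-square of 67.4 and 70.2 per degree of freedom, against 6.12 between PGRN KO 4 and 5, and results that turn on this library are also given without it.

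PGRN KO macrophages held less mRNA of most of these chaperones. The constitutive HSP70 gene Hspa8 and the stress-inducible pair Hspa1a and Hspa1b showed the largest differences, with PGRN KO levels at 55.2%, 48.3% and 42.1% of WT. Both cytosolic HSP90 genes, the HSP110 gene Hsph1 and the chaperonin gene Hspd1 were also lower, at 65.4% to 78.6% of WT. Dnajb1 and Hspe1 did not pass the test, and Hspb1 was too low to enter it. Differences were tested with limma on log2(FPKM + 1), in genes with a mean of at least 1 FPKM, with p-values adjusted over all 8882 genes tested and a threshold of 0.05. Of the 9 chaperone genes tested, 7 were lower in PGRN KO and 0 were higher, where 13.8% of all tested genes were lower and 10.4% were higher. The median difference of the 9 genes was -0.42 on the log2 scale, against -0.03 over all tested genes. Hspa1b had a mean of 0.913 FPKM in PGRN KO and entered the test only through its WT level, so the count is a description and not support for a difference. Without the filter, 6 of 10 genes were lower, where 3.33% of all genes were. Without PGRN KO 6, 7 of the 9 genes were lower, where 25.1% of tested genes were, and without WT 1 it was 4 of 9, where 4.3% were. With other scalings between libraries, 5 of 9 were lower on the TPM scale, where 6.85% of tested genes were, and 4 of 9 with the sum of fragments as library size, where 7.82% were.

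**Figure D1:**
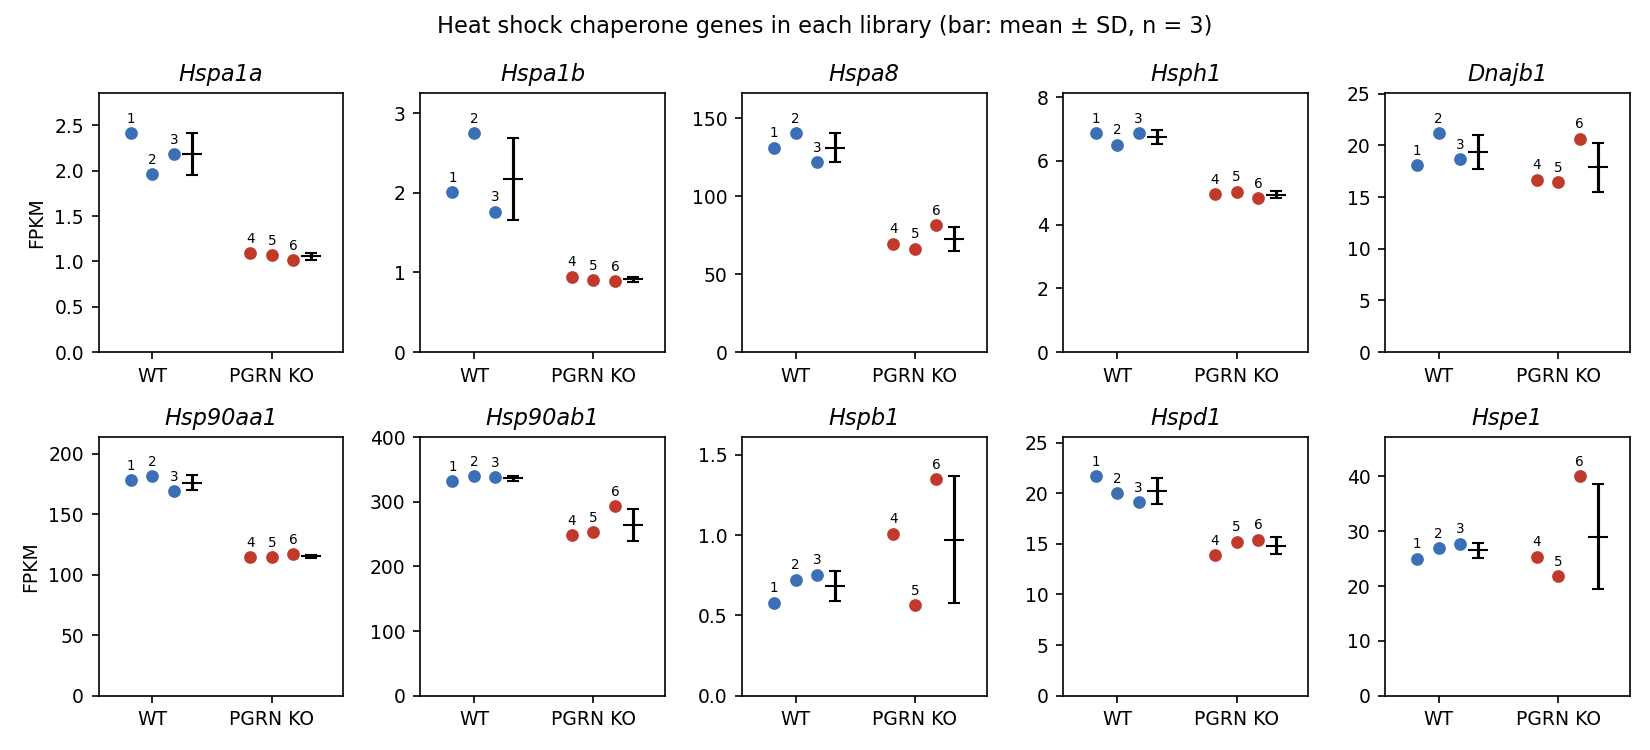
FPKM of the 10 heat shock chaperone genes in each library, from 0 on each vertical axis. Blue points are WT 1 to 3, red points are PGRN KO 4 to 6, and bars are the mean ± SD (n = 3). The PGRN KO points lie below all WT points in 7 panels, and the groups overlap for Dnajb1, Hspb1 and Hspe1, where PGRN KO 6 is the highest PGRN KO library.

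RNA from a whole well does not separate fewer cells of a type from less RNA per cell, and markers of several cell types moved with genotype. All 8 macrophage markers were present, and their summed level was 11620 to 12560 FPKM in WT. It was 10720, 10440 and 14380 FPKM in PGRN KO 4, 5 and 6, so that only PGRN KO 6 lay above WT and the other PGRN KO libraries lay below it. Most of this sum was Lyz2 and Cd14, with WT means of 5744.6 and 4831.1 FPKM. In PGRN KO 4, 5 and 6 Lyz2 was at 5990.3, 5873.1 and 8135.4 FPKM and Cd14 at 3365.7, 3209.5 and 4652.5 FPKM. Of the 8 markers 1 was lower and 1 higher in PGRN KO, where 13.8% of all tested genes were lower and 10.4% higher. Csf1r, the receptor of macrophage colony-stimulating factor, was at 32.5 ± 1.29 and 24.7 ± 0.905 FPKM (SD, n = 3 each, limma adjusted p = 0.0178). Mertk, a receptor for dead cells, was at 1.41 ± 0.229 and 3.24 ± 0.514 FPKM (adjusted p = 0.0064). The other 6 did not pass, among them Adgre1, the macrophage adhesion receptor known as F4/80, at 186 ± 8.60 and 176 ± 13.5 FPKM (adjusted p = 0.591). Of 5 markers of large peritoneal macrophages 3 were tested. Icam2, an adhesion molecule, was higher in PGRN KO, at 3.10 ± 0.163 and 5.10 ± 0.526 FPKM (adjusted p = 0.00914). Gata6, the defining factor of these cells, was at 3.95 ± 0.264 and 4.50 ± 0.621 FPKM (adjusted p = 0.367, and 0.0539 without PGRN KO 6). Prg4, also tested, had a lower PGRN KO mean and did not pass (14.2 ± 1.82 against 12.7 ± 2.04 FPKM, adjusted p = 0.457). The untested Timd4 and Selp likewise had lower PGRN KO means (0.149 against 0.0258 and 0.0690 against 0.0574 FPKM). The groups did not overlap for Timd4, on 0 to 8 fragments per library, and overlapped for Selp. The neutrophil list rested on S100a8, a calcium-binding protein, which was at 48.8, 52.8 and 48.3 FPKM in WT and at 21.2, 23.1 and 25.6 FPKM in PGRN KO (adjusted p = 0.00142). The other neutrophil markers were below 1 FPKM in all libraries, and Ly6g and Cxcr2 were at 0. The sums were lower in WT for mast cell markers (2.23 to 3.19 against 9.31 to 13.9 FPKM). The same held for B cell markers (1.501 to 2.50 against 6.62 to 8.92 FPKM). Among the mast cell markers only Kit went the other way, with means of 0.345 against 0.210 FPKM and overlapping groups. T cell markers summed to 0.962 to 1.36 FPKM in WT and 2.11 to 2.56 FPKM in PGRN KO. Mesothelial and fibroblast markers together summed to 0.967 to 1.09 FPKM in WT and 1.80 to 3.24 FPKM in PGRN KO. Only the fibroblast genes Col1a1, Col3a1 and Dcn of this list were higher in PGRN KO (Dcn means 0.490 and 1.35 FPKM). The mesothelial genes Msln, Upk3b and Krt19 had lower means in PGRN KO, and their groups overlapped. Their WT and PGRN KO means were 0.103 and 0.0705, 0.0169 and 0.00546, and 0.156 and 0.121 FPKM, on at most 7 fragments per library. Most of the dendritic cell sum was Ccr7, a chemokine receptor, which was at 28.9 ± 3.42 and 16.6 ± 1.93 FPKM (adjusted p = 0.00775). The other genes of that list were low and not tested. Xcr1 and Flt3 had lower means in PGRN KO, at 1.16 ± 0.183 and 0.388 ± 0.0633 FPKM and at 0.320 ± 0.0467 and 0.120 ± 0.0260 FPKM. Zbtb46 had a higher mean, at 0.550 ± 0.0288 and 0.698 ± 0.110 FPKM. Of 8 immediate early genes, which respond within minutes to handling and other stimuli, 6 were lower in PGRN KO, where 13.8% of all tested genes were, and the list summed to 3847 to 4662 FPKM in WT and 2640 to 3462 FPKM in PGRN KO. The part of these cells and genes in the chaperone differences was not tested.

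Promoters are shown because heat shock factors bind paired units in them, and a part of these factors in the differences was not tested. Windows of 250 bases before and 50 bases after a transcript start were taken from RefSeq (GRCm38.p6), where 7 of the 10 genes had one. Hspa8, Hsp90aa1 and Hsp90ab1, which were lower in PGRN KO, had no window. The windows were searched for GAANNTTC, called motif A, and TTCNNGAA, called motif B, each of which reads the same on both strands. They were also searched for 3 units in a row, in which motif A and motif B share a unit. The 7 genes had 10 windows in all, some genes having more than 1. Motif A or B was in 7 of these 10 windows, from 6 of the 7 genes, and in 15.06% of all 32851 windows. In the same way 3 units in a row were in 4 of the 10 windows, from 3 of the 7 genes, and in 0.603% of all windows. The Hsph1 windows overlap and hold the same run, which is thus counted in each of them. Below are the 150 bases directly before the start of 5 genes, 5′ to 3′ on the strand of the gene, with the units of a match in capitals. The first 4 carry a match, and Dnajb1 is shown as the gene without one. Positions are chr17:34972157-34972306 on the minus strand for Hspa1a, chr17:34959239-34959388 on the minus strand for Hspa1b, chr5:149636337-149636486 on the minus strand for Hsph1, chr1:55087998-55088147 on the plus strand for Hspe1 and chr8:83608025-83608174 on the plus strand for Dnajb1.
Hspa1a: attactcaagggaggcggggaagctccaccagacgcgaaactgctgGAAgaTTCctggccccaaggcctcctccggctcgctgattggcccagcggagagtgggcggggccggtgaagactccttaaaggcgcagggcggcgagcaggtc
Hspa1b: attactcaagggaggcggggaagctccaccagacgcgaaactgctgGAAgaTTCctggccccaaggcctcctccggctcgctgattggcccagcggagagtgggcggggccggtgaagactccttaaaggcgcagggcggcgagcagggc
Hsph1: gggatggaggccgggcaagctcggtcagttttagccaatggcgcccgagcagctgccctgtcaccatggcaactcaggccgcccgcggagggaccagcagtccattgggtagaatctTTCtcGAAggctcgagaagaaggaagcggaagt
Hspe1: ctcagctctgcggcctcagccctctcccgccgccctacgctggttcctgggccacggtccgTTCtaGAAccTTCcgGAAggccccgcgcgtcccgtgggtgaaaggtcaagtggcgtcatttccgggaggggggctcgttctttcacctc
Dnajb1: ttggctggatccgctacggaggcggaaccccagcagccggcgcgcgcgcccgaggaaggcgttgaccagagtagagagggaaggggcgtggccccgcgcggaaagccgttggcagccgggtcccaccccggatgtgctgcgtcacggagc
Hspa1a and Hspa1b carried motif A at the same place, beginning 104 bases before the start, and the printed stretches differed at 1 of 150 bases. Hsph1 had motif B beginning 33 bases before the start, and motif B and motif A sharing a unit beginning 36 bases after it. In the Hspe1 stretch, motif B, motif A and motif B followed each other with shared units, beginning 89 bases before the start. The same letters lay in 1 window of Hspd1, which is read in the opposite direction, so that this run is 1 stretch of DNA counted for both genes. The other Hspd1 window, whose start is that of the gene model, had no match. Hspb1 had 2 matches of motif A, beginning 117 and 97 bases before the start, and neither window of Dnajb1 had a match. Genes with a match thus included Hspe1 and Hspb1, which were not called, as well as 4 genes that were lower. A match is a description of letters, and binding of a factor was not measured.

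**Figure D2:**
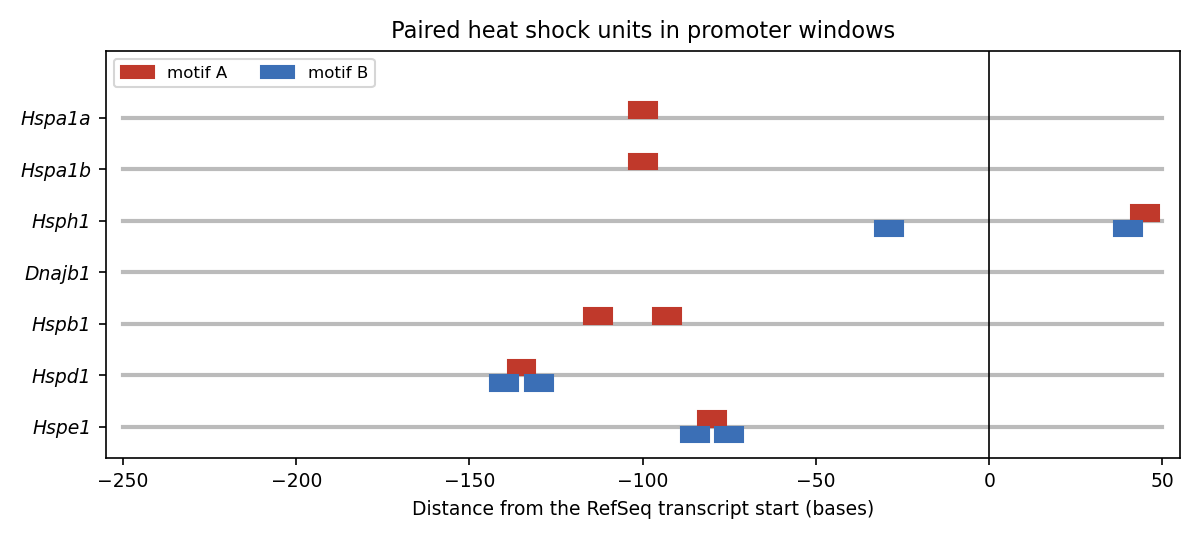
Matches in the RefSeq promoter windows of 7 heat shock chaperone genes, drawn by distance in bases from the transcript start (line at 0), with 1 window per gene. Red boxes above a line are motif A and blue boxes below a line are motif B. Boxes touch where units are shared, as in Hsph1, Hspd1 and Hspe1, and the Dnajb1 line is empty. The other Hspd1 window, which had no match, is not drawn.

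Hspa8 (ENSMUSG00000015656, chr9:40800984-40810087 on GRCm38, plus strand) encodes HSC70, the HSP70 of unstressed cells, which also carries proteins to the lysosome. It was at 131, 141 and 122 FPKM in WT and at 69.5, 66.5 and 81.3 FPKM in PGRN KO. The lowest WT library thus lay well above the highest PGRN KO library, at 5176 to 9455 fragments per library. The difference was -0.85 ± 0.11 on the log2(FPKM + 1) scale (SE, 95% interval -1.11 to -0.59, adjusted p = 0.00383), and 200 of 8882 tested genes ranked this low or lower. Of the words of 31 bases of Hspa8, 44.8% also occurred in other gene models, 38.6% in Gm15459.

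Hspa1a (ENSMUSG00000091971, chr17:34969190-34972156, minus strand) and Hspa1b (ENSMUSG00000090877, chr17:34956436-34959238, minus strand) encode the inducible HSP70 and lie 9951 bases apart. Hspa1a was at 2.42, 1.96 and 2.19 FPKM in WT and at 1.09, 1.07 and 1.01 FPKM in PGRN KO. Hspa1b was at 2.00, 2.75 and 1.76 FPKM in WT and at 0.948, 0.905 and 0.888 FPKM in PGRN KO. For both genes all WT libraries lay above all PGRN KO libraries, and the PGRN KO libraries differed little among themselves. Both genes were low, with 52 to 120 fragments of Hspa1a and 43 to 114 fragments of Hspa1b per library, so that counting alone gave an error of up to 13.9% and 15.3% of a value. The differences were -0.63 ± 0.10 (SE, 95% interval -0.86 to -0.40, adjusted p = 0.00602) for Hspa1a and -0.72 ± 0.13 (SE, 95% interval -1.03 to -0.41, adjusted p = 0.0106) for Hspa1b. The added 1 FPKM shrinks differences of genes this low, and on log2 fragments without it (limma voom) they were -1.04 and -1.20. The 2 genes cannot be well told apart: their longest open reading frames were 99.4% identical, and 70.1% and 68.1% of their words of 31 bases occurred in other genes, mostly in each other. The sources used here do not say how the counting treated such fragments or whether it was by strand. Hspa1a also overlaps Gm20481 on the other strand by 2225 bases, a gene model listed at 0 in all libraries.

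Hsph1 (ENSMUSG00000029657, chr5:149614287-149636376, minus strand) encodes HSP105, which exchanges the nucleotide of HSP70. It was at 6.88, 6.51 and 6.86 FPKM in WT and at 4.96, 5.03 and 4.83 FPKM in PGRN KO. The groups were narrow and did not overlap, with a difference of -0.38 ± 0.08 (SE, 95% interval -0.57 to -0.19, adjusted p = 0.0159). The call was lost without WT 1, 2 or 3, with adjusted p = 0.0895, 0.0611 and 0.0723 and differences of -0.37, -0.41 and -0.37. Hsph1 shared none of its words with other genes, so that this difference rests on fragments of a single locus.

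Dnajb1 (ENSMUSG00000005483, chr8:83608193-83612653, plus strand) encodes HSP40, the J-domain partner of the inducible HSP70. It was at 18.1, 21.2 and 18.7 FPKM in WT and at 16.7, 16.4 and 20.6 FPKM in PGRN KO. PGRN KO 6 lay within the WT range and the other PGRN KO libraries lay below it. The difference was -0.11 ± 0.12 (SE, 95% interval -0.39 to 0.17, adjusted p = 0.528). Without PGRN KO 6 it was -0.21 (adjusted p = 0.0739).

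Hsp90aa1 (ENSMUSG00000021270, chr12:110690605-110702728, minus strand) encodes the stress-inducible cytosolic HSP90 and Hsp90ab1 (ENSMUSG00000023944, chr17:45567775-45573271, minus strand) the constitutive one. Hsp90aa1 was at 178, 181 and 169 FPKM in WT and at 115, 114 and 117 FPKM in PGRN KO. All PGRN KO libraries were close to each other and far below WT, with a difference of -0.61 ± 0.08 (SE, 95% interval -0.80 to -0.41, adjusted p = 0.0045). Hsp90ab1, the most abundant of the 10 genes, was at 332, 339 and 339 FPKM in WT and at 248, 253 and 293 FPKM in PGRN KO. The groups did not overlap, and PGRN KO 6 was the library nearest to WT. Its difference was -0.35 ± 0.10 (SE, 95% interval -0.59 to -0.11, adjusted p = 0.0465), just inside the threshold. The Hsp90ab1 call was lost when WT 1, 2 or 3 or PGRN KO 4 or 5 was left out (adjusted p = 0.115 to 0.164, differences -0.36 to -0.31). Of the words of Hsp90aa1, 51.5% occurred in other genes, mostly in gene models such as Gm12346, against 13.2% of those of Hsp90ab1.

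Hspd1 (ENSMUSG00000025980, chr1:55077835-55088243, minus strand) encodes HSP60, the barrel of the mitochondrial chaperonin, and Hspe1 (ENSMUSG00000073676, chr1:55088132-55091307, plus strand) encodes HSP10, its lid. The genes lie head to head and overlap by 112 bases on opposite strands, where fragments cannot be told apart unless strand was used. Hspd1 was at 21.7, 19.99 and 19.1 FPKM in WT and at 13.9, 15.2 and 15.4 FPKM in PGRN KO. The groups did not overlap, with a difference of -0.42 ± 0.09 (SE, 95% interval -0.64 to -0.21, adjusted p = 0.0177). This call was lost without WT 1, 2 or 3 or PGRN KO 4 (adjusted p = 0.0537 to 0.0987, differences -0.46 to -0.38). Hspe1 was at 24.98, 26.9 and 27.7 FPKM in WT and at 25.3, 21.8 and 40.0 FPKM in PGRN KO. PGRN KO 6 was above all WT libraries, PGRN KO 5 was below them and PGRN KO 4 was among them. The difference of Hspe1 was 0.08 ± 0.21 (SE, 95% interval -0.41 to 0.57, adjusted p = 0.802), and without PGRN KO 6 it was -0.17 (adjusted p = 0.151). Other genes shared 53.1% of the words of Hspd1, most of them the pseudogene Hspd1-ps3, and 30.5% of those of Hspe1, of which the overlapping Hspd1 shared 5.68% and AC117239.2 shared 23.1%.

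Hspb1 (ENSMUSG00000004951, chr5:135887919-135889563, plus strand) encodes the small heat shock protein HSP25. It was at 0.580, 0.721 and 0.753 FPKM in WT and at 1.01, 0.564 and 1.35 FPKM in PGRN KO. The PGRN KO libraries lay on both sides of the WT range, on only 10 to 24 fragments per library, and a difference was not detectable at this depth (two-sided exact permutation p = 0.4). The other 9 small heat shock protein genes listed were all below 1 FPKM on average and were not tested.

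**Figure D3:**
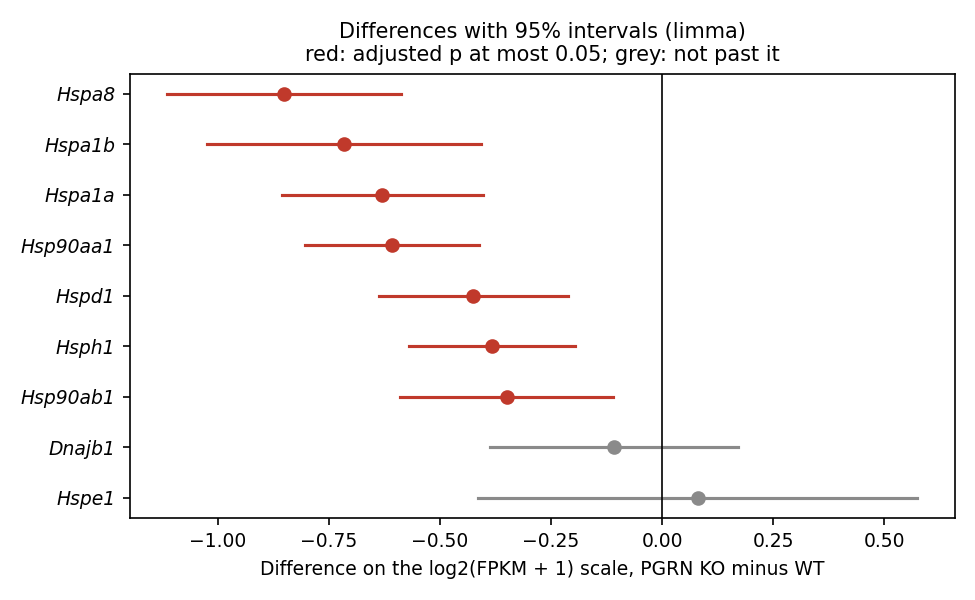
Difference between PGRN KO and WT on the log2(FPKM + 1) scale for the 9 heat shock chaperone genes tested, with 95% intervals from limma. Red marks the 7 genes past an adjusted p of 0.05, from Hspa8 at -0.85 to Hsp90ab1 at -0.35, and grey marks Dnajb1 at -0.11 and Hspe1 at 0.08, whose intervals hold 0.

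The exact two-sided permutation test of 3 against 3 libraries cannot give a p below 0.1. Each of the 7 genes whose groups did not overlap reached that value, and 27.6% of all tested genes were lower in PGRN KO without overlap. The exact p was 0.5 for Dnajb1 and 0.9 for Hspe1.

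By level in WT the genes fell into an order from Hsp90ab1 (337 ± 3.87 FPKM), Hsp90aa1 (176 ± 6.22 FPKM) and Hspa8 (131 ± 9.39 FPKM) down to Hspb1 (0.685 ± 0.0921 FPKM; SD, n = 3). Between these, Hspe1 was at 26.5 ± 1.41 FPKM, Hspd1 at 20.2 ± 1.30 FPKM, Dnajb1 at 19.3 ± 1.65 FPKM and Hsph1 at 6.75 ± 0.206 FPKM. Neighbours in this order did not overlap between libraries, except that Hspd1 overlapped Dnajb1, and Hspa1a (2.19 ± 0.229 FPKM) overlapped Hspa1b (2.17 ± 0.516 FPKM). The inducible HSP70 genes were thus near the bottom of the order after 6 hours with the fungus, while Hsp90aa1, the inducible HSP90 gene, was second from the top. These levels depend on how the counting treated fragments shared with other genes, which the sources used here do not say. The 10 genes together came to 718, 741 and 707 FPKM in WT and to 496, 495 and 576 FPKM in PGRN KO, which was 72.3% of WT (exact p = 0.1, the smallest possible). Hsp90ab1, Hsp90aa1 and Hspa8 made up 89.1% to 89.3% of this sum in WT and 85.4% to 87.7% in PGRN KO. The other 7 genes summed to 76.6, 80.1 and 77.0 FPKM in WT and to 63.9, 61.0 and 84.1 FPKM in PGRN KO. PGRN KO 6 exceeded WT in this smaller sum, and the groups overlapped (exact p = 0.4).

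PGRN KO 6 departed from PGRN KO 4 and 5 to a different extent from gene to gene. It was 1.71 times their mean for Hspb1 and 1.70 times for Hspe1, which are the shortest gene models of the 10 at 1031 and 1474 bases. The Hspb1 value rests on only 18, 11 and 24 fragments in PGRN KO 4, 5 and 6. Hspd1, the next shortest at 2642 bases, was at 1.06 times, and a part of length was not tested. For Dnajb1, Hspa8 and Hsp90ab1 it was 1.25, 1.196 and 1.17 times their mean, and for the other 5 genes it was between 0.940 and 1.06 times. The 7 genes that were lower remained past the threshold without this library.

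Ratios between partners were compared within each library for 5 pairs. The plain ratios do not depend on the scaling between libraries, and the differences given are of log2 ratios with 1 FPKM added to both sides, unless stated otherwise. Hsp90aa1 was at 0.536, 0.534 and 0.4997 of Hsp90ab1 in WT and at 0.461, 0.453 and 0.398 of it in PGRN KO. All 3 PGRN KO ratios lay below WT (difference -0.26 on the log2 scale, exact p = 0.1, adjusted over 5 ratios p = 0.167). Dnajb1 was at 0.138, 0.151 and 0.153 of Hspa8 in WT and at 0.240, 0.247 and 0.254 of it in PGRN KO, a difference of 0.74 (exact p = 0.1, adjusted p = 0.167). Hsph1 was at 0.0525, 0.0463 and 0.0563 of Hspa8 in WT and at 0.0714, 0.0757 and 0.0594 of it in PGRN KO, a difference of 0.47, or of 0.41 with nothing added (exact p = 0.1, adjusted p = 0.167). In both cases all PGRN KO ratios were above all WT ratios, and 0.1 is the smallest p this design allows, so that no ratio could pass the threshold.

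Hspe1 was at 1.15, 1.35 and 1.45 times Hspd1 in WT and at 1.83, 1.43 and 2.60 times in PGRN KO. The PGRN KO 5 ratio lay among those of WT, and the difference was 0.50 (exact p = 0.2, adjusted p = 0.25). The inducible pair Hspa1a and Hspa1b summed to 0.0337, 0.0335 and 0.0324 of Hspa8 in WT and to 0.0293, 0.0297 and 0.0234 of it in PGRN KO. These plain ratios lay below WT in all PGRN KO libraries (difference -0.28 on the log2 scale with nothing added). With 1 FPKM added to each sum the difference was 0.002 (exact p = 1), so that the size of this difference depends on the added value.

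**Figure D4:**
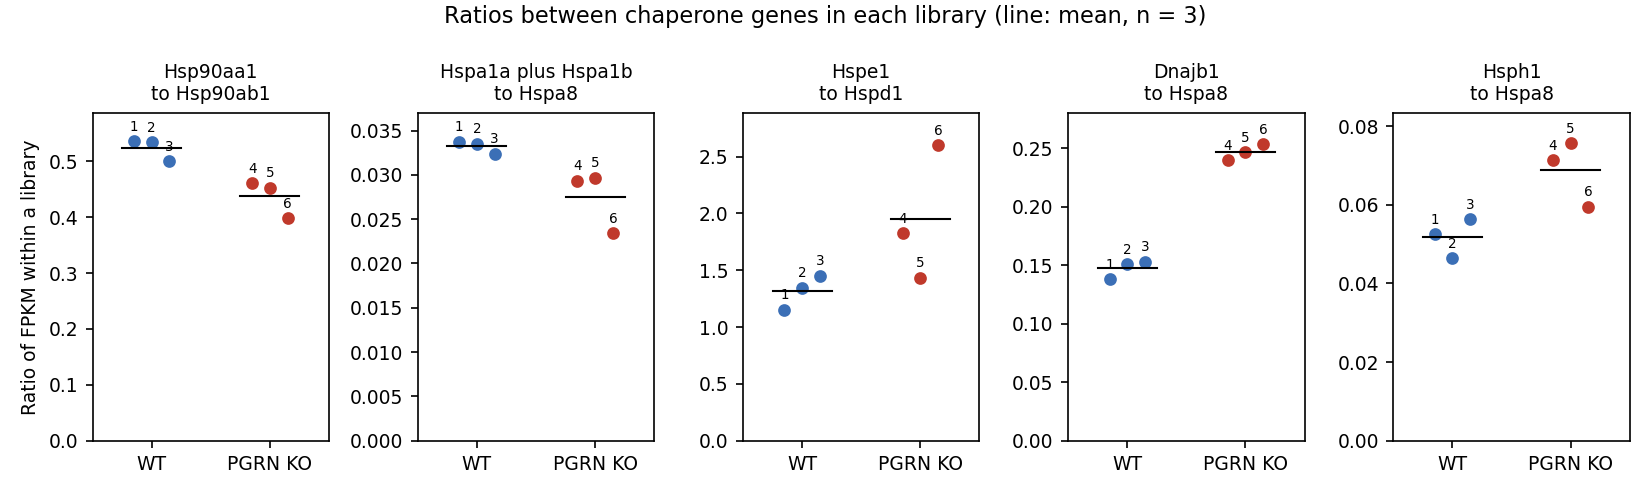
Ratios of FPKM between heat shock chaperone genes within each library, from 0 on each vertical axis, with the mean of each group as a line (n = 3). WT 1 to 3 are blue and PGRN KO 4 to 6 are red, and the groups do not overlap for 4 of the 5 ratios, Hspe1 to Hspd1 being the exception.

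Genes around these chaperones were taken in 9 lists by function, 102 genes in all. Of these, 83 were tested, 6 were higher and 12 lower in PGRN KO, and 65 did not pass, with a median difference of -0.04. The lower genes were thus about as frequent as among all tested genes, of which 13.8% were lower and 10.4% higher. Without WT 1, 2 or 3 in turn, 4 to 5 genes of the lists were lower and 1 to 2 higher. Over all 8882 tested genes, 382, 443 and 486 were lower and 331, 412 and 397 higher in these settings. Without PGRN KO 6, 27 genes of the lists were lower, where 25.1% of all tested genes were. Of the heat shock factor genes, Hsf1, the factor that drives the heat shock response, had a WT level of 1.72 ± 0.0616 FPKM and a PGRN KO level of 1.72 ± 0.143 FPKM (SD, n = 3, adjusted p = 0.975), and Hsf2 was at 1.70 ± 0.0176 and 1.61 ± 0.167 FPKM (adjusted p = 0.715). Hsf4 was at 0.350 ± 0.246 FPKM in WT and at 0.761 ± 0.146 FPKM in PGRN KO, on 4 to 27 fragments per library, and was not tested. Of 6 genes in that list 3 were tested and 0 were called. Hsbp1, the other gene tested, was at 18.6, 20.6 and 21.5 FPKM in WT and at 25.9, 23.0 and 38.6 FPKM in PGRN KO. Its groups did not overlap, but it did not pass (difference 0.47 ± 0.19, SE, limma adjusted p = 0.107). The mRNA level of a factor does not show its activity, which was not measured.

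Of other HSP70 and HSP110 genes, 3 of 5 tested were lower and 0 higher, where 13.8% of all tested genes were lower, with a median of -0.27. Hspa4, an HSP110 protein of the cytosol, was at 69.0, 71.4 and 63.5 FPKM in WT and at 47.5, 46.4 and 46.8 FPKM in PGRN KO (difference -0.52 ± 0.08, SE, adjusted p = 0.0075, and 0.0549 without WT 1). Hspa13 was at 5.74 ± 0.327 and 3.82 ± 0.401 FPKM (difference -0.48, adjusted p = 0.0152, and 0.0529 to 0.0733 without WT 1, 2 or 3). Hspa14, which works at the ribosome, was at 16.8 ± 0.612 and 13.7 ± 0.458 FPKM (difference -0.27, adjusted p = 0.0493, and 0.115 to 0.186 without WT 1, 2 or 3), and it passed the threshold in only 5 of 17 other settings. J-domain genes of the cytosol and nucleus, the class of Dnajb1, had 0 of 13 called and a median of -0.13.

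Among genes for nucleotide exchange and ubiquitin transfer on HSP70, 1 of 8 was higher and 2 were lower. Of all tested genes, 10.4% were higher and 13.8% lower. Bag3, the exchange factor that directs clients to autophagy and is itself a heat shock gene, was at 11.8, 11.1 and 11.6 FPKM in WT and at 7.35, 7.98 and 7.54 FPKM in PGRN KO (difference -0.54 ± 0.08, SE, adjusted p = 0.00598). St13, which steadies the client-bound form of HSP70, was at 14.8 ± 0.135 and 11.1 ± 1.24 FPKM (difference -0.38, adjusted p = 0.0317). Bag1, which links HSP70 to the proteasome, was at 32.0, 34.4 and 31.2 FPKM in WT and at 48.8, 47.7 and 80.7 FPKM in PGRN KO (difference 0.80 ± 0.20, SE, adjusted p = 0.0307). All PGRN KO libraries were above WT for Bag1, and PGRN KO 6 was far above the rest. Without PGRN KO 6 the difference of Bag1 was 0.56 (adjusted p = 0.00143).

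Of 14 HSP90 co-chaperones, 2 were higher and 2 lower, where 10.4% of all tested genes were higher and 13.8% lower. Ptges3, the p23 protein that closes the HSP90 clamp, was at 48.6, 41.1 and 43.8 FPKM in WT and at 25.5, 29.3 and 29.6 FPKM in PGRN KO (difference -0.64 ± 0.10, SE, adjusted p = 0.00752). Tomm34 was also lower, at 10.3 ± 0.486 and 7.35 ± 0.975 FPKM (difference -0.45, adjusted p = 0.0283). Fkbp5, a steroid receptor co-chaperone and a target of glucocorticoids, was at 0.675, 0.778 and 0.825 FPKM in WT and at 1.61, 1.66 and 1.82 FPKM in PGRN KO (difference 0.62 ± 0.09, SE, adjusted p = 0.00594), and it entered the test only through its PGRN KO level. Unc45a, a myosin chaperone, was at 7.40 ± 0.129 and 11.6 ± 2.05 FPKM (difference 0.57, adjusted p = 0.0187).

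The TRiC chaperonin and prefoldin, which fold actin and tubulin, had 0 of 14 genes called and a median of 0.05. Mitochondrial chaperones and proteases outside Hspd1 and Hspe1 had 1 of 12 higher and 2 lower, where 10.4% of all tested genes were higher and 13.8% lower. Hspa9, the mitochondrial HSP70, was at 259, 263 and 245 FPKM in WT and at 186, 197 and 201 FPKM in PGRN KO (difference -0.39 ± 0.09, SE, adjusted p = 0.0222). The Hspa9 call was lost when any library but PGRN KO 6 was left out (adjusted p = 0.055 to 0.123). Grpel2, a nucleotide exchange factor of Hspa9, was at 5.99 ± 0.563 and 3.37 ± 0.288 FPKM (difference -0.68, adjusted p = 0.00577), and Trap1, the mitochondrial HSP90, was higher at 5.15 ± 0.899 and 7.33 ± 0.775 FPKM (difference 0.44, adjusted p = 0.0484).

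ER chaperones had 2 of 14 higher and 3 lower, where 10.4% of all tested genes were higher and 13.8% lower. Hspa5, the ER HSP70 known as BiP, was at 332, 358 and 306 FPKM in WT and at 305, 285 and 345 FPKM in PGRN KO (difference -0.09 ± 0.12, SE, adjusted p = 0.584), and Hsp90b1, the ER HSP90, was at 53.9 ± 1.42 and 46.0 ± 1.88 FPKM (difference -0.23, adjusted p = 0.0859). Hsp90b1 passed the threshold without PGRN KO 6 (difference -0.26, adjusted p = 0.00836), and Hspa5 passed in none of 17 other settings. Dnajb9, a J-domain partner of BiP, was at 22.0, 24.3 and 21.3 FPKM in WT and at 9.92, 12.4 and 9.56 FPKM in PGRN KO (difference -1.02 ± 0.12, SE, adjusted p = 0.00269). The disulfide isomerases P4hb and Pdia3 were lower, at 385 ± 13.5 and 283 ± 23.9 FPKM (difference -0.44, adjusted p = 0.0221) and at 70.1 ± 3.95 and 52.3 ± 5.75 FPKM (difference -0.42, adjusted p = 0.0314). Hyou1, the HSP110 of the ER, was higher at 4.40 ± 0.458 and 6.14 ± 0.482 FPKM (difference 0.40, adjusted p = 0.0317). Among the called genes named from the lists, Bag3, Ptges3, Fkbp5, Grpel2 and Dnajb9 passed in every other setting that tested them and Hspa4 in 16 of 17. Of up to 17 settings, Bag1 and Unc45a passed in 13, Hspa13 and Hspa9 in 12, Trap1, P4hb and Pdia3 in 11, Hyou1 in 10, Tomm34 in 9 and St13 in 8.

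**Figure D5:**
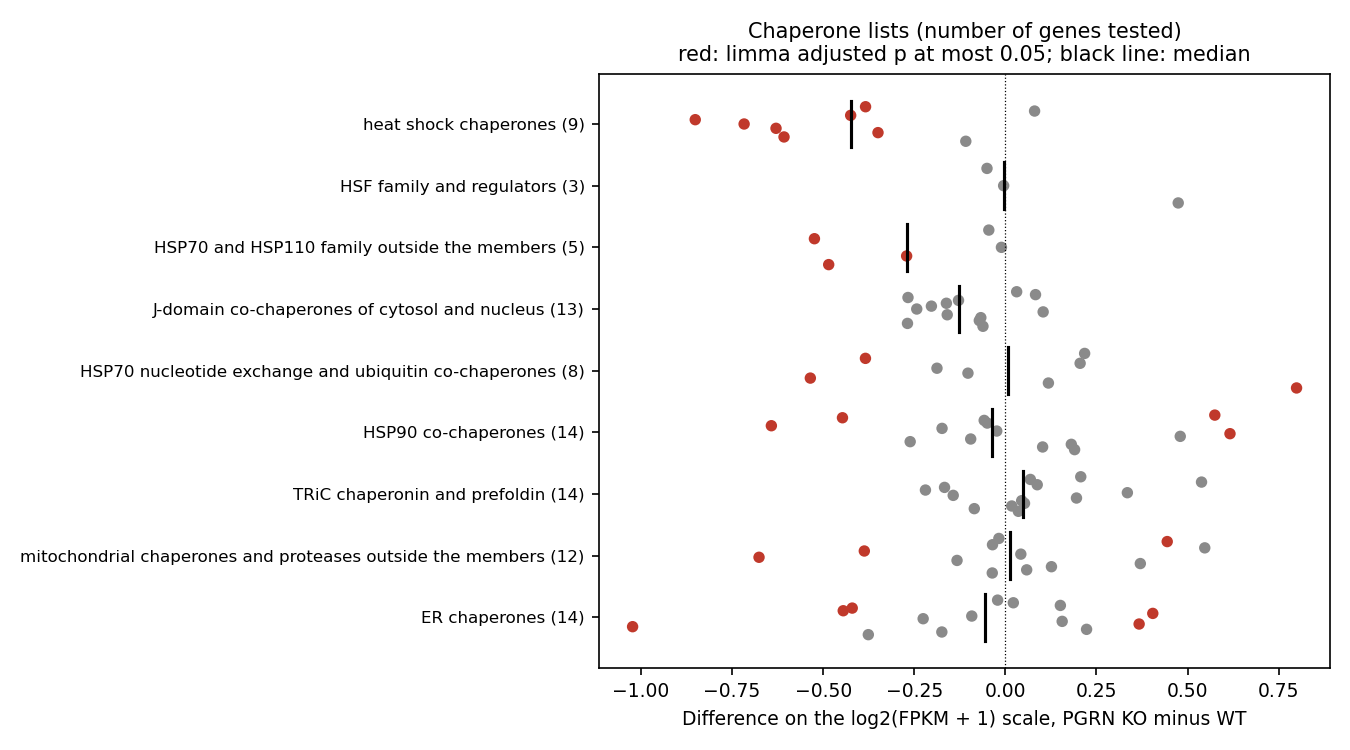
Differences between PGRN KO and WT on the log2(FPKM + 1) scale for the genes tested in each chaperone list, with the number tested in brackets. Red points passed an adjusted p of 0.05 in limma, grey points did not, and the black line is the median, which is -0.42 for the heat shock chaperones and lies between -0.27 and 0.05 for the other lists.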

How the data were processed

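Polyadenylated RNA was sequenced as paired reads from 3 WT and 3 PGRN KO libraries. The submitters' processing notes name HISAT2 2.0.5, featureCounts 1.5.0-p3, DESeq2 1.20.0 and GRCm38, while the methods of the study name another aligner release and another counter. The authors deposited FPKM per gene. FPKM times gene length gave whole fragments (tolerance 0.001 of a fragment) in all libraries, and the library size behind them was that of median-ratio size factors. All 10 genes had the same coordinates in GENCODE M21. The test was two-sided and used limma 3.58.1 (R 4.3.3) on log2(FPKM + 1), with trended empirical Bayes variances and without covariates, in the 8882 genes whose FPKM averaged at least 1, with Benjamini-Hochberg adjustment and a threshold of 0.05. FPKM are not counts, so the count model named in the study was not used, and limma voom on recovered fragments was an alternative. This test was checked on simulated data. Ratios were compared by exact permutation tests. Identity between genes was computed on nucleotide open reading frames. Promoter windows came from RefSeq (GRCm38.p6), without entries for Hspa8, Hsp90aa1 and Hsp90ab1. Named genes were the 10 chaperones, up to 4 called genes of each list with the largest difference, Hsf1, Hsf2, Hspa9, Hspa5, Hsp90b1, Grn and 5 genes of like profile. The cell type markers, Hsf4 and Hsbp1 were named in addition, after their values were seen. Genes and lists were chosen with earlier results of these data known.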

Additional observations from a re-analysis of the deposited data

How the results depend on the processing

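All tested genes gave 921 higher and 1230 lower calls, the 10 heat shock chaperones 0 and 7, and the other lists 6 and 12. Over all genes, higher and lower calls were 603 and 763 without a filter, 1757 and 2468 with sample quality weights (PGRN KO 6 weighed 0.0899), and 1619 and 2102 with a length and GC correction without PGRN KO 6, an alternative chosen after seeing the data. They were 529 and 953 at a mean FPKM of at least 5, and the balance turned on the TPM scale (922 and 608) and with the sum of fragments as library size (1179 and 695), while quantile normalization gave 1069 and 1113. Of the chaperones, 4 were lower with the sum of fragments, where 7.82% of tested genes were, and 5 on the TPM scale, where 6.85% were. The genes lost with the sum of fragments were Hsph1, Hsp90ab1 and Hspd1. The other lists had 2 higher and 7 lower without a filter, 11 and 26 with weights, and 27 lower with the correction without PGRN KO 6. In these settings 763, 2468 and 2102 of all genes were lower.

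Leaving out 1 library gave 331 to 1438 higher and 382 to 2230 lower calls over all genes, 4 to 7 lower and 0 higher chaperones, and 4 to 27 lower and 1 to 8 higher genes in the other lists. The extremes over all genes were without WT 1, where 4 chaperones were lower against 4.3% of tested genes, and without PGRN KO 6. Hspa8, Hsp90aa1, Hspa1a and Hspa1b stayed past the threshold in every alternative that tested them, with adjusted p up to 0.0315, 0.0399, 0.04 and 0.0454. Hsph1 did so in 12 of 17, Hspd1 in 11 and Hsp90ab1 in 10, and Dnajb1 and Hspe1 in 0. With a library left out, the log2 ratios ranged from -0.298 to -0.192 for Hsp90aa1 to Hsp90ab1, 0.284 to 0.698 for Hspe1 to Hspd1, 0.699 to 0.772 for Dnajb1 to Hspa8, 0.394 to 0.566 for Hsph1 to Hspa8 and -0.057 to 0.104 for Hspa1a plus Hspa1b to Hspa8. The last was -0.244 with 0.1 FPKM added and -0.282 with none, a setting chosen after seeing the data.

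Differences that did not pass and turned sign were those of Hspe1 (-0.090 with weights, -0.167 without PGRN KO 6 and -0.138 with the correction added to that, range -0.167 to 0.256 with a library left out), Hsf1 (0.030 on the TPM scale, 0.058 with the sum of fragments, 0.064 with the correction, range -0.031 to 0.040), Hsf2 (0.013 with the sum, 0.138 with the correction, 0.084 with the correction without PGRN KO 6, range -0.090 to 0.001), Hspa5 (0.008 with the sum) and Adgre1 (0.022 with the sum, 0.003 with the correction without PGRN KO 6). The cause of these changes was not tested. No paired analysis was possible because replicate numbers 1 to 3 are WT and 4 to 6 are PGRN KO. Depth limits Hspb1, Hspa1a and Hspa1b, whose counting errors reached 31.6%, 13.9% and 15.3% of a value, and intervals cover the spread between libraries only.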

Other observations

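The mean profile of the 9 tested chaperones over the 6 libraries, centred per gene on the log2(FPKM + 1) scale, was 0.220, 0.266 and 0.179 in WT and -0.268, -0.288 and -0.109 in PGRN KO. Among tested genes outside the lists, those with the most similar profile (Pearson correlation over 6 libraries of 2 genotypes, given as a description) were Dusp5, a phosphatase of ERK (r = 0.9995), Slc2a1, the glucose transporter GLUT1 (r = 0.9994), Cdca4 (r = 0.9985), Rab7, a GTPase of late endosomes (r = 0.9985), and Hnrnpa1, an RNA-binding protein (r = 0.9974). Dusp5 was at 132, 138 and 128 FPKM in WT and at 74.3, 73.7 and 91.1 FPKM in PGRN KO (difference -0.74 ± 0.11, SE, limma adjusted p = 0.00594). Slc2a1 was at 743, 785 and 732 FPKM in WT and at 503, 498 and 570 FPKM in PGRN KO (difference -0.53 ± 0.10, SE, adjusted p = 0.0138). These genes share with the mean profile of the chaperones a lower level in PGRN KO and a PGRN KO 6 value nearer to WT. Not every chaperone had this PGRN KO 6 value. For Hspa1a, Hspa1b and Hsph1 it was 0.940, 0.9585 and 0.968 times the mean of PGRN KO 4 and 5. A correlation above 0.9 was common, at 847 of 8882 tested genes (9.54%), since any gene that is evenly lower in PGRN KO has one. Of the chaperones themselves, Hspa8 was closest to their mean profile (r = 0.998), and Dnajb1 (r = 0.624) and Hspe1 (r = 0.085) were farthest.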
